A study of Homo sapiens with 9 samples.

Results

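The genes of the endoplasmic reticulum (ER) stress response, also called the unfolded protein response, were followed in H295R cells treated for 3 h with torcetrapib, angiotensin II or vehicle. The set was a list of 33 genes matched by symbol, and 32 were measured among the 19752 genes compared. SYVN1 had no probe set annotated with a single gene symbol and is named only. Each gene was read by the probe set with the highest mean over the 9 arrays. The 32 genes fall into 7 of the PERK branch, 9 of the IRE1 branch, 4 of the ATF6 branch and 12 ER chaperones and folding enzymes.

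When unfolded proteins build up in the ER, sensors in its membrane pass the signal on along separate branches. PERK phosphorylates the initiation factor eIF2, which lowers general protein synthesis while the mRNA of the transcription factor ATF4 is translated, and other kinases can reach ATF4 through the same factor. IRE1 splices the mRNA of XBP1, and ATF6 is cut free from the membrane, and both then act on genes for chaperones and for the degradation of misfolded proteins. Cells of the adrenal cortex make steroids with cytochrome P450 enzymes, several of which sit in the ER membrane.

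H295R cells come from a human carcinoma of the adrenal cortex and secrete steroid hormones. The study asked whether inhibitors of the cholesteryl ester transfer protein (CETP) switch on renin-angiotensin-aldosterone signalling in cells of adrenal origin. The groups, 3 arrays each and all at 3 h, were 100 nM torcetrapib (labelled CP-529414), a CETP inhibitor, 100 nM angiotensin II, the peptide hormone that drives aldosterone secretion, and DMSO, the vehicle. All groups used the same single cell line, and nothing in the labels states that the 3 arrays of a group are separate cultures. The p-values therefore reflect variation among these arrays only, and that variation may be technical.

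Values are log2 expression after robust multi-array averaging (RMA), and a difference of 1 on this scale is a doubling. In this bulk RNA, fewer cells expressing a gene and less RNA per cell cannot be told apart. The array medians lay between 5.537 and 5.602, and within a group the arrays correlated across genes, which are no independent replicates, at r between 0.9964 and 0.9985. Of 9 adrenocortical markers measured, STAR had a mean of 11.84 and CYP11A1 of 11.20 under DMSO, and the other 7 lay between 6.18 (MRAP) and 9.86 (CYP17A1). MRAP and INHA (6.40) read below 6.7331, the median of gene means. Of 4 markers of the medulla, TH read 3.92 and the others 5.78 (DBH) to 6.80 (CHGA) under DMSO. Of 9 fibroblast, endothelial and immune markers, LUM (3.23), PTPRC (3.49) and CDH5 (3.75) read below 4.8678, the 25th percentile of gene means, and the other 6 between 4.93 (CD3E) and 7.72 (COL1A1). These values do not show whether such cells or their RNA were absent. A sign of RNA quality was an index that subtracts the log2 value of the 3′ control probe set from that of the 5′ one, averaged over ACTB and GAPDH. It was -0.24 ± 0.03 on torcetrapib arrays, -0.62 ± 0.02 on angiotensin II arrays and -0.50 ± 0.22 on DMSO arrays (SD, n = 3 each). An exact permutation test gave a two-sided p of 0.1 for torcetrapib against each other group, the smallest that 3 against 3 arrays allow, and 0.5 for angiotensin II against DMSO.

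The stretches before the gene start are shown for 5 members, because they carry letter patterns through which the branches are known to act and yet the members differed in what was measured. All are the 250 bases before the start in the RefSeq promoter table (GRCh38.p14), written 5′ to 3′ on the gene's strand. Capitals mark the matches to the pattern named for each. HERPUD1, a membrane protein of ER-associated degradation (ERAD), lies on the plus strand (chr16:56931892-56932141) and holds an ERSE-II. XBP1, the transcription factor of the IRE1 branch, lies on the minus strand (chr22:28800570-28800819) and holds an ERSE, the ER stress response element. HSPA5, the ER chaperone BiP that holds the sensors inactive, lies on the minus strand (chr9:125241344-125241593) and holds an ERSE. HSP90B1, the ER chaperone GRP94, lies on the plus strand (chr12:103930160-103930409) and holds 2 ERSE, the one nearer the gene on the other strand. PPP1R15A, the GADD34 subunit that directs a phosphatase to eIF2, lies on the plus strand (chr19:48872171-48872420) and holds a CRE, the cAMP response element.
HERPUD1: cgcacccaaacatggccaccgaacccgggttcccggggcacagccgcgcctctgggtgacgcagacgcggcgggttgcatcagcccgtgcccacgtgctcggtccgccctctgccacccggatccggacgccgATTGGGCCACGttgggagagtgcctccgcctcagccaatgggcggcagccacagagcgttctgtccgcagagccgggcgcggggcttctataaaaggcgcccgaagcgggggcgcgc
XBP1: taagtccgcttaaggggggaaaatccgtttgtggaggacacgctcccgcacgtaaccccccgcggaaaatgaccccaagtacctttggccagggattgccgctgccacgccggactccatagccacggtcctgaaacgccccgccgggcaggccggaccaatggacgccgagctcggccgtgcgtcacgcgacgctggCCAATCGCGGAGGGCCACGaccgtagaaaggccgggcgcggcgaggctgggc
HSPA5: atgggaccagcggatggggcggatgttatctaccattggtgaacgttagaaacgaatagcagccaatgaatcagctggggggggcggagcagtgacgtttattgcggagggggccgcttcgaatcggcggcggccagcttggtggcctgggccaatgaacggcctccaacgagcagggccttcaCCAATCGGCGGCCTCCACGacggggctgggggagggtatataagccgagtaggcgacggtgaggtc
HSP90B1: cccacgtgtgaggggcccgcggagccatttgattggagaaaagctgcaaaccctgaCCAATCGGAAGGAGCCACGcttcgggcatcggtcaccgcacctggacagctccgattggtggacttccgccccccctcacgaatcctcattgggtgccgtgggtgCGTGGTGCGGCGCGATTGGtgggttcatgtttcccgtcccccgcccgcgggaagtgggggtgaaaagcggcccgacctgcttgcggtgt
PPP1R15A: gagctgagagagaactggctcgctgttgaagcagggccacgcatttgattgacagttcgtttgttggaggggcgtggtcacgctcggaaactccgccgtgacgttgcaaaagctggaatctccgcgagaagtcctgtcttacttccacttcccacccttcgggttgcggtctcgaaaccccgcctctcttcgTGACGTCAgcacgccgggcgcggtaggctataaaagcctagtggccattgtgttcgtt

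Exact letters were searched on both strands in the windows of 29 members and of all 27305 promoters of that table. DERL1, DERL3 and PDIA3 had no window. The ERSE, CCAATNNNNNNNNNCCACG, is bound by ATF6 and XBP1 together with NF-Y, and was found in 6 members (CALR, CANX, CRELD2, HSP90B1, HSPA5 and XBP1) and in 0.0806% of all promoters. ERSE-II, ATTGGNCCACG, was found in HERPUD1, HYOU1 and SDF2L1 and in 0.0513% of all promoters. Either element stood in 9 of the 29 members and in 0.132% of all promoters, and 7 of those 9 were chaperones. The UPRE core, TGACGTGG, was found in HYOU1, where it overlaps an ERSE-II, and in 0.6665% of promoters. The CRE, TGACGTCA, was found in PPP1R15A, from 58 to 51 bases before its start, and in 1.7652% of promoters. The CARE of ATF4 and C/EBP factors, TGATGNAAT, was in no member's window and in 0.9156% of promoters. Known elements of this kind vary in the last base, and with C there (TGATGNAAC, a search added after seeing the data) it was in the windows of 4 members, ASNS, CHAC1, HERPUD1 and PPP1R15B, and in 0.6556% of promoters. A match is a description of letters and not of binding.

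**Figure D1:**
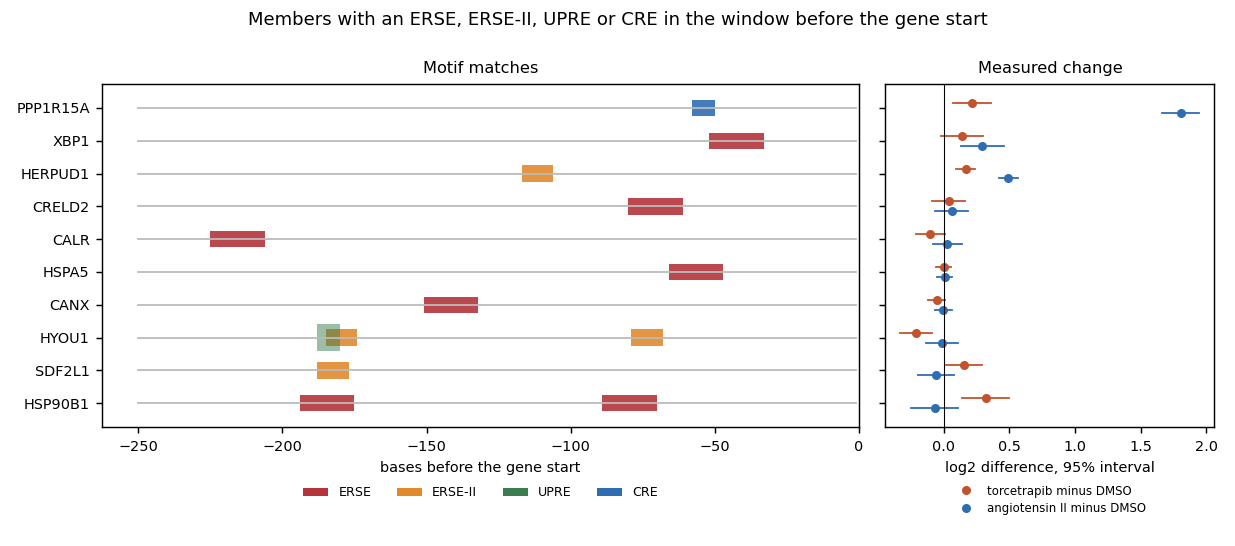
Positions of the motif matches in the 250 bases before the start of the 10 members that hold an ERSE, ERSE-II, UPRE or CRE (left, bars along the window, in bases before the gene start), beside the log2 difference of each from DMSO with its 95% interval (right, torcetrapib above angiotensin II). Among the 9 members with an ERSE or ERSE-II, HERPUD1 and XBP1 rose with angiotensin II, while the 7 chaperones sat near 0 in that comparison.

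Angiotensin II against DMSO shows what the hormone did to these genes within 3 h. Genes of the PERK branch rose, led by PPP1R15A at 3.49-fold and DDIT3 at 1.79-fold, while none of the 12 chaperones and folding enzymes passed the test. Over all members, 9 rose and 1 fell by limma with Benjamini-Hochberg adjustment over all genes. Among all 19752 genes, 6.13% were called, 3.37% as higher and 2.76% as lower. The median difference was 0.0495 over the members and 0.0105 over all genes.

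Of the PERK branch, 6 of 7 genes rose, with a median difference of 0.3737. PPP1R15A (GADD34) read 8.78, 8.99 and 8.87 on the torcetrapib arrays, 10.52, 10.41 and 10.49 on the angiotensin II arrays, and 8.75, 8.55 and 8.69 on the DMSO arrays. It rose by 1.80 ± 0.07 (SE) with angiotensin II, with a limma adjusted p of 3.72e-11. All angiotensin II arrays lay above every other array, and the torcetrapib arrays lay just above DMSO without overlap. DDIT3, the pro-apoptotic transcription factor CHOP, read 8.97, 9.11 and 8.96 with torcetrapib, 9.80, 9.69 and 9.83 with angiotensin II, and 8.86, 8.96 and 8.99 with DMSO, and rose by 0.84 ± 0.06 (limma adjusted p = 2.09e-07). CHAC1, an enzyme that breaks down glutathione, read 7.05, 7.20 and 7.23 with torcetrapib, 7.83, 7.64 and 7.84 with angiotensin II, and 7.21, 6.92 and 7.04 with DMSO, and rose by 0.71 ± 0.09 (limma adjusted p = 0.000117). For both genes the angiotensin II arrays stood clear of the rest, and torcetrapib overlapped DMSO.

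The kinase itself and its transcription factor moved less. EIF2AK3, which encodes PERK, read 9.19, 9.17 and 9.11 on torcetrapib arrays, 9.57, 9.40 and 9.66 on angiotensin II arrays, and 9.16, 9.13 and 9.21 on DMSO arrays. Its rise with angiotensin II was 0.37 ± 0.07 (limma adjusted p = 0.00169). ATF4 mRNA read 11.27, 11.34 and 11.22 with torcetrapib, 11.56, 11.53 and 11.63 with angiotensin II, and 11.18, 11.18 and 11.25 with DMSO. It rose by 0.37 ± 0.04 with angiotensin II (limma adjusted p = 2.17e-05), and the arrays of that group lay above all others for both genes. ATF4 is controlled mainly at translation, which these arrays do not read. PPP1R15B, the constitutive partner of the same phosphatase, read 10.30, 10.33 and 10.36 with torcetrapib, 10.71, 10.56 and 10.65 with angiotensin II, and 10.32, 10.24 and 10.32 with DMSO, and rose by 0.35 ± 0.05 (limma adjusted p = 0.000189). Angiotensin II arrays again did not overlap with the others. ASNS, asparagine synthetase, differed by 0.16 with a 95% interval from 0.01 to 0.30 and did not pass (limma adjusted p = 0.242). The 6 calls held in all 19 alternatives tried.

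**Figure D2:**
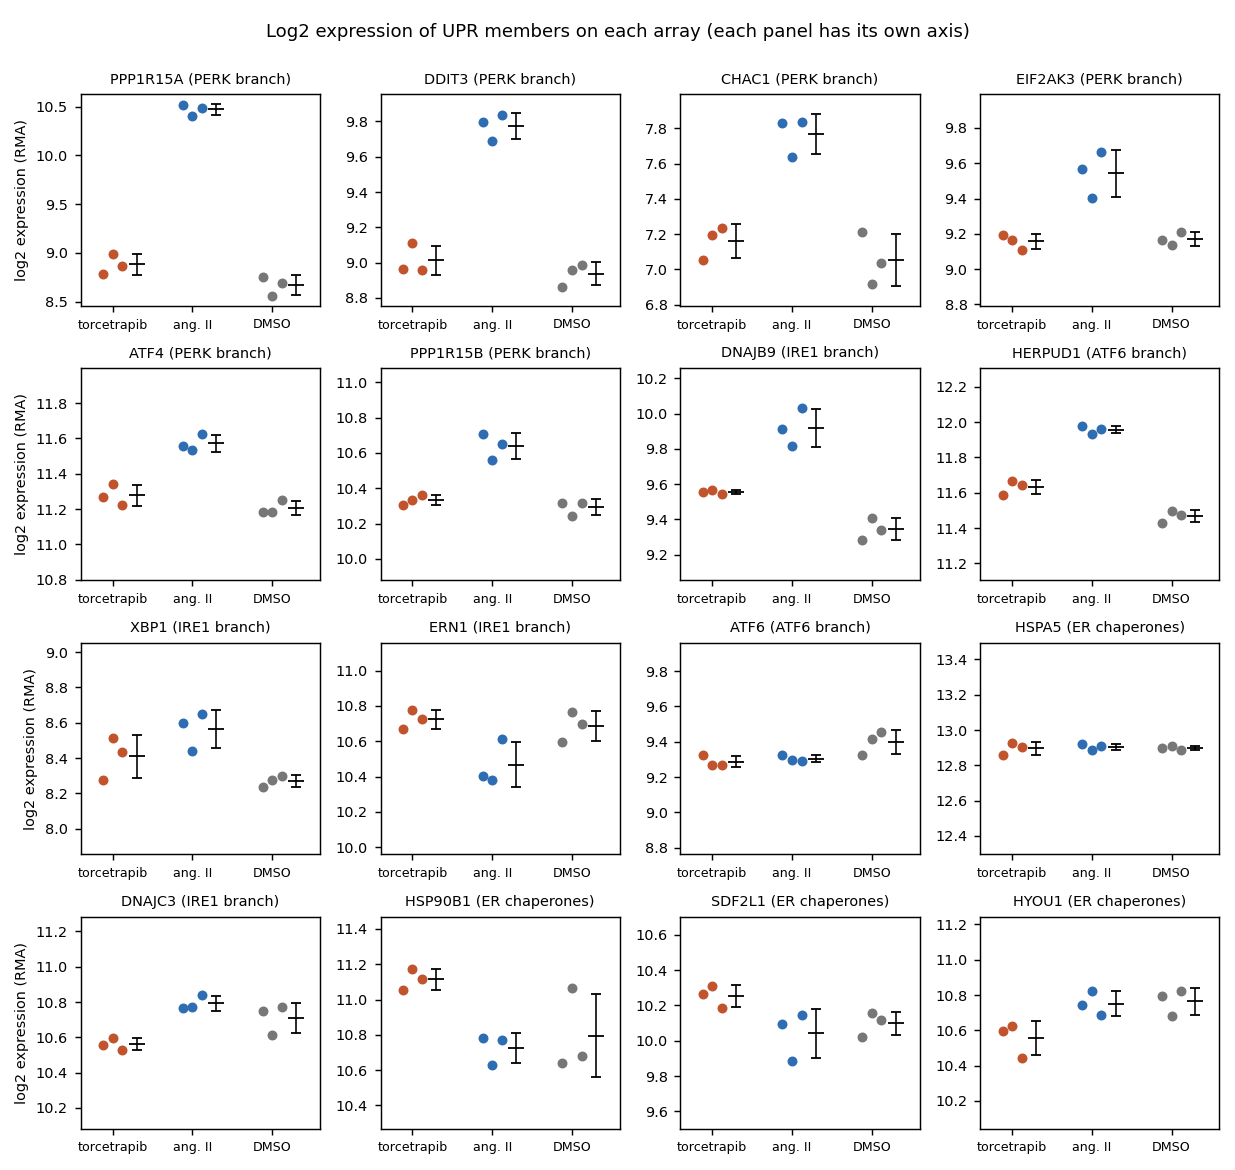
Log2 expression on each array (points) for the 16 members with values given per array, with the group mean and SD (n = 3) beside the points, torcetrapib left, angiotensin II in the middle and DMSO right, and a separate axis for each panel. The angiotensin II arrays of PPP1R15A, DDIT3, CHAC1, EIF2AK3, ATF4, PPP1R15B, DNAJB9 and HERPUD1 lie above all other arrays, while HSPA5 differs by less than 0.07 over all 9.

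In the IRE1 branch, 2 of 9 genes rose and 1 fell with angiotensin II. DNAJB9, the ER co-chaperone ERdj4 that returns IRE1 to its inactive form, read 9.55, 9.57 and 9.54 with torcetrapib, 9.91, 9.81 and 10.03 with angiotensin II, and 9.28, 9.41 and 9.34 with DMSO. It rose by 0.57 ± 0.06 with angiotensin II (limma adjusted p = 8.28e-06), and the 3 groups did not overlap, torcetrapib lying between the others. XBP1 read 8.28, 8.52 and 8.43 with torcetrapib, 8.60, 8.44 and 8.65 with angiotensin II, and 8.23, 8.28 and 8.30 with DMSO. Its rise was 0.29 ± 0.08 (limma adjusted p = 0.0306), and the angiotensin II arrays lay above DMSO but overlapped torcetrapib. The call held in 10 of 19 alternatives and was lost without any 1 of the DMSO arrays or without angiotensin II replicate 1 or 3, with an adjusted p of up to 0.639 over the alternatives. The probe set reads XBP1 mRNA in total, not its spliced form.

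ERN1, which encodes IRE1, was the member that fell. It read 10.67, 10.78 and 10.73 with torcetrapib, 10.41, 10.38 and 10.61 with angiotensin II, and 10.59, 10.76 and 10.70 with DMSO. With angiotensin II it fell by 0.22 ± 0.06 (limma adjusted p = 0.0488), although the highest angiotensin II array lay within the DMSO range. The call held in 6 of 19 alternatives, with a limma adjusted p of up to 0.719 and a difference as small as -0.06 over all of them. Leaving out any 1 array except DMSO replicate 1 or angiotensin II replicate 3 ended the call, with an adjusted p of up to 0.196. A further probe set of ERN1 differed by 0.03. The other 6 genes of the branch did not pass. They are the co-chaperone DNAJC3, the ERAD factor EDEM1, the translocon subunit SEC61B and the derlins DERL1, DERL2 and DERL3, and EDEM1 had the largest difference among them, at 0.19 (limma adjusted p = 0.17).

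Of the 4 measured ATF6 branch genes, HERPUD1 rose. It read 11.59, 11.66 and 11.64 with torcetrapib, 11.98, 11.93 and 11.96 with angiotensin II, and 11.43, 11.50 and 11.47 with DMSO. The rise with angiotensin II was 0.49 ± 0.03 (limma adjusted p = 9.33e-08), and the 3 groups lay apart with torcetrapib in the middle. A further probe set of HERPUD1, with a mean of 5.79 over the 9 arrays, differed by -0.09, and the mean of both probe sets gave 0.20 (limma adjusted p = 0.0689). ATF6 mRNA read 9.33, 9.27 and 9.27 with torcetrapib, 9.33, 9.29 and 9.29 with angiotensin II, and 9.33, 9.42 and 9.46 with DMSO, and its difference of -0.10 with angiotensin II did not pass (limma adjusted p = 0.424). SEL1L, an adaptor of the ERAD ubiquitin ligase, and WFS1, a membrane protein of the ER, differed by -0.04 and 0.04 and did not pass either.

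By their brightest probe sets, none of the 12 chaperones and folding enzymes passed with angiotensin II by limma, and none had an unadjusted p under 0.05. HSPA5 read 12.86, 12.93 and 12.90 with torcetrapib, 12.92, 12.88 and 12.91 with angiotensin II, and 12.90, 12.91 and 12.89 with DMSO. The groups overlapped throughout, and the difference of angiotensin II from DMSO was 0.01 with a 95% interval from -0.05 to 0.06. A further probe set of HSPA5 differed by 0.25 (limma adjusted p = 0.0997 over all probe sets). The other 11 were the chaperones HSP90B1, CALR, CANX and HYOU1, the disulphide isomerases PDIA3, PDIA4 and PDIA6, the co-chaperones DNAJB11 and SDF2L1, and the ER-resident factors CRELD2 and MANF. By the brightest probe sets, their differences ran from -0.07 for PDIA3 to 0.07 for MANF, and the 95% intervals of all 12 together from -0.248 to 0.188. Further probe sets of CANX differed by -0.25, -0.34, -0.01 and 0.11, and none passed over all probe sets (lowest limma adjusted p = 0.174). The count stayed at 0 in all 19 alternatives.

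Without regard to the test, 11 members lay wholly above DMSO on the angiotensin II arrays and 1 wholly below, against 9.26% of all genes above, 8.37% below and 17.6% in either direction. The 11 were the 7 PERK branch genes, DNAJB9, XBP1, EDEM1 and HERPUD1, and the member below was PDIA6. Members with an ERSE or ERSE-II in the window counted 2 higher of 9, and members with a window but neither element 7 higher and 1 lower of 20.

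**Figure D3:**
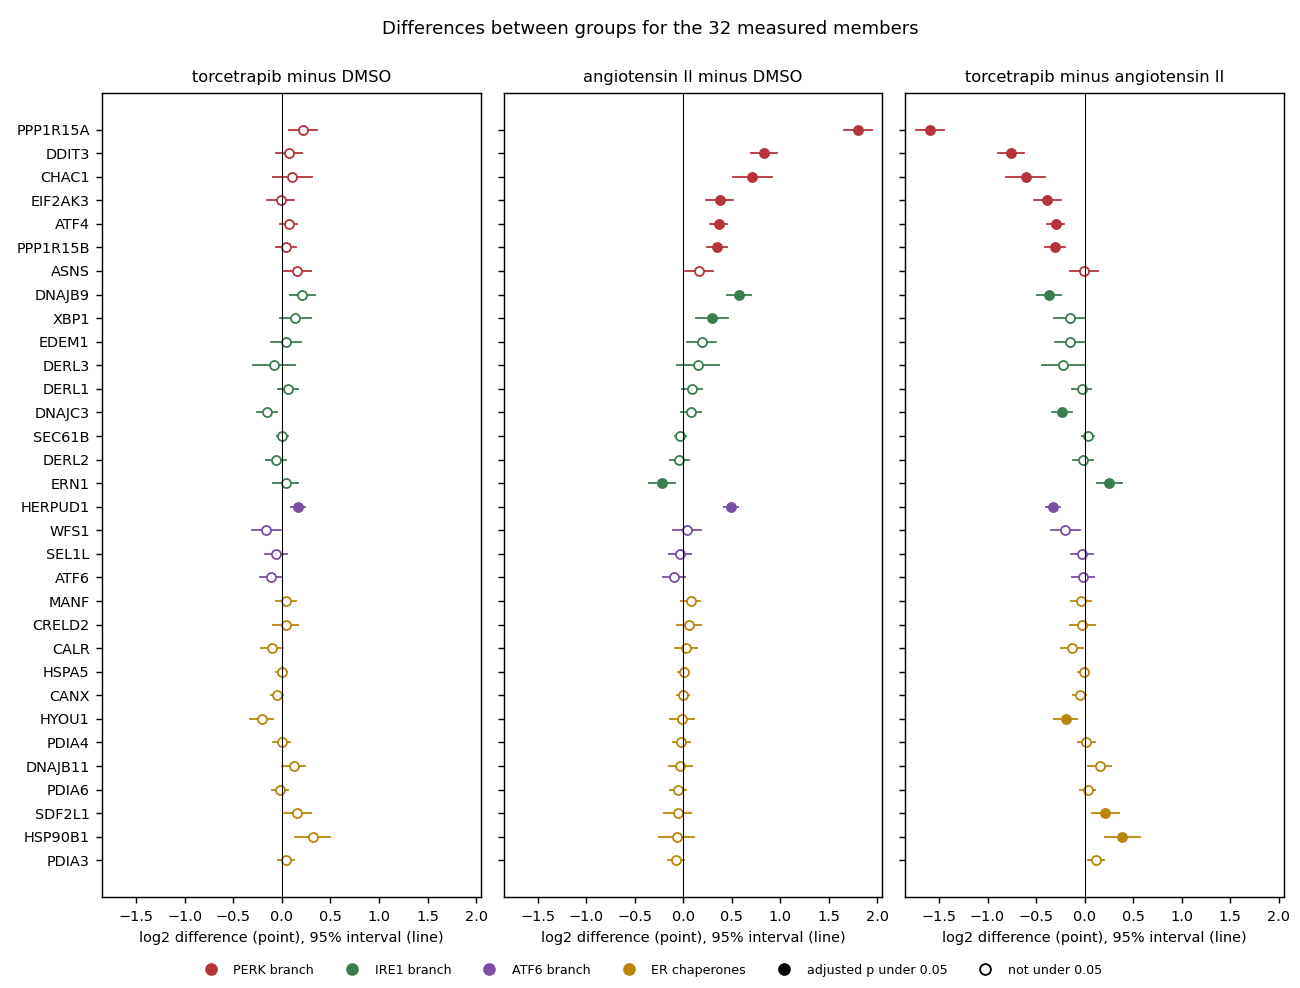
Log2 differences (points) with 95% intervals (lines) of the 32 measured members, for torcetrapib minus DMSO (left), angiotensin II minus DMSO (middle) and torcetrapib minus angiotensin II (right), grouped and coloured by branch, with filled points where the limma adjusted p was under 0.05. The PERK branch lies right of 0 in the middle panel and, except for ASNS, left of 0 in the right panel, while the chaperones cluster at 0 in the middle panel.

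Torcetrapib against DMSO asks whether the CETP inhibitor touched the same genes, and it shares the DMSO arrays with the angiotensin II comparison. By limma, 1 of 32 members rose and none fell, against 1.16% of all genes called, 0.592% as higher and 0.567% as lower. At an unadjusted p under 0.05, 7 members were higher and 3 lower, where 13.3% of all genes passed in either direction. The groups did not overlap for 5 members on the higher side and 3 on the lower, against 6.03% and 10.5% of all genes and 16.5% in either direction. The median difference was 0.039 over the members and -0.0281 over all genes.

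HERPUD1 was the member that rose with torcetrapib, by 0.17 ± 0.03 or 1.12-fold (limma adjusted p = 0.0288). Its 3 torcetrapib arrays lay above the 3 DMSO arrays and below the 3 angiotensin II arrays. The call held in 7 of 19 alternatives, with an adjusted p between 0.00549 and 0.933, and was lost without any 1 torcetrapib array, without DMSO replicate 1 or 3 or without angiotensin II replicate 1, and the further probe set differed by -0.13.

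No PERK branch gene passed with torcetrapib, and 2 of 7, PPP1R15A and ASNS, had an unadjusted p under 0.05. PPP1R15A differed by 0.21 ± 0.07 with a 95% interval from 0.07 to 0.36 (limma adjusted p = 0.163). DDIT3 differed by 0.08, CHAC1 by 0.11, ATF4 by 0.07, PPP1R15B by 0.04 and EIF2AK3 by -0.01, and the intervals of all 7 together ran from -0.152 to 0.358. In the IRE1 branch none of 9 genes passed. DNAJB9 differed by 0.21 ± 0.06 (limma adjusted p = 0.112) with groups that did not overlap, and DNAJC3 (P58IPK), which binds PERK and inhibits it, by -0.15 (limma adjusted p = 0.16). The other 7 of that branch differed by -0.08 (DERL3) to 0.14 (XBP1). The ATF6 branch genes besides HERPUD1 read lower on average by their brightest probe sets without passing, with -0.16 for WFS1, -0.11 for ATF6 and -0.06 for SEL1L. Further probe sets differed by 0.01 for WFS1, by 0.03, -0.05 and -0.13 for ATF6, and by 0.97, 0.52 and -0.06 for SEL1L. Of these, the SEL1L probe set at 0.97 passed over all probe sets (limma adjusted p = 0.0142).

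None of the 12 chaperones passed with torcetrapib by limma, with 3 higher and 1 lower at an unadjusted p under 0.05. The 4 were HSP90B1, SDF2L1 and DNAJB11 above and HYOU1 below, at 0.32, 0.16, 0.12 and -0.21, and their limma adjusted p ran from 0.0867 to 0.349. By the brightest probe sets, the groups did not overlap for PDIA3 and SDF2L1 on the higher side and CANX and HYOU1 on the lower. CANX differed by -0.05 there, and its further probe sets by 0.18, 0.46, -0.05 and 0.04, none passing over all probe sets (lowest limma adjusted p = 0.256). HSPA5 differed by less than 0.01, with a 95% interval from -0.06 to 0.06. HSP90B1 read 11.05, 11.17 and 11.12 with torcetrapib, 10.78, 10.63 and 10.77 with angiotensin II, and 10.64, 11.06 and 10.68 with DMSO. It differed from DMSO by 0.32 ± 0.08 (limma adjusted p = 0.0867), and DMSO replicate 2 alone reached the torcetrapib range. The 5′ to 3′ index was -0.275 on torcetrapib replicate 1 and -0.276 on DMSO replicate 2, the DMSO array nearest to torcetrapib by that index. Every torcetrapib array thus had a higher index than every DMSO array, so index and treatment cannot be told apart in this comparison. With the index in the model, 71 genes were called as higher and 5 as lower over all 19752. HSP90B1 was read by an _x_at probe set, a type whose probes can also match other sequences. A further _x_at probe set of HSP90B1, with a mean of 7.41, differed from DMSO by 0.22. Other probe sets of HSP90B1 were left out because they also carry the symbol MIR3652. Without DMSO replicate 2, 5 members passed, namely HSP90B1, DNAJB9 and HERPUD1 as higher and HYOU1 and DNAJC3 as lower. Over all 19752 genes that setting called 287 as higher and 630 as lower, where 229 were called in all with every array.

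Torcetrapib against angiotensin II tests the difference between both treatments at the same dose and time. It uses the same angiotensin II and torcetrapib arrays as the comparisons with DMSO, so its calls are no separate support for those. By limma, 10 of 32 members were lower with torcetrapib and 3 were higher, against 6.7% of all genes lower and 4.62% higher, 11.3% in all. The median difference was -0.0433 over the members and -0.0426 over all genes. Group ranges did not overlap for 5 members on the higher and 13 on the lower side, against 10.3% and 18.4% of all genes and 28.6% in either direction. At an unadjusted p under 0.05, 5 members were higher and 13 lower, where 24.8% of all genes passed.

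The PERK branch accounted for 6 of the 10 lower members, with a branch median of -0.3866. PPP1R15A differed by -1.59 ± 0.07, DDIT3 by -0.76 ± 0.06 and CHAC1 by -0.60 ± 0.09, with limma adjusted p of 3.07e-10, 8.32e-07 and 0.000593. EIF2AK3 differed by -0.39, PPP1R15B by -0.31 and ATF4 by -0.30, while ASNS differed by less than 0.01 between the treatments, with an interval from -0.15 to 0.14. DNAJB9 differed by -0.36 and HERPUD1 by -0.32, with limma adjusted p of 0.000911 and 1.53e-05. A further probe set of HERPUD1 differed by -0.04, and 2 further probe sets of DNAJB9 by -0.04 and -0.55. XBP1 differed by -0.16 and did not pass (limma adjusted p = 0.224).

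Chaperones and co-chaperones were called in both directions between the treatments. HSP90B1 was higher with torcetrapib by 0.39 ± 0.08 (limma adjusted p = 0.00757), with no overlap. A further probe set of HSP90B1 differed by 0.09 (limma adjusted p = 0.771 over all probe sets). SDF2L1, a partner of BiP, read 10.27, 10.31 and 10.19 with torcetrapib, 10.09, 9.89 and 10.15 with angiotensin II, and 10.02, 10.16 and 10.12 with DMSO, and was higher with torcetrapib than with angiotensin II by 0.21 ± 0.06 (limma adjusted p = 0.0458). HYOU1, a large ER chaperone of the HSP70 family, read 10.60, 10.63 and 10.44 with torcetrapib, 10.74, 10.83 and 10.68 with angiotensin II, and 10.79, 10.68 and 10.82 with DMSO, and differed from angiotensin II by -0.20 ± 0.06 (limma adjusted p = 0.0362). For these 3 genes the torcetrapib arrays lay clear of the angiotensin II arrays, while angiotensin II overlapped DMSO. ERN1 was higher with torcetrapib by 0.26 ± 0.06 (limma adjusted p = 0.013). Further probe sets of ERN1, with means of 10.09 and 5.63, differed by -0.11 and 0.20. DNAJC3 read 10.56, 10.60 and 10.53 with torcetrapib, 10.77, 10.77 and 10.84 with angiotensin II, and 10.75, 10.61 and 10.77 with DMSO, and differed between the treatments by -0.23 ± 0.05 (limma adjusted p = 0.00504), while the mean of its probe sets differed by 0.08. Its further probe sets differed by -0.05, 0.21 and 0.38, the last with a limma adjusted p of 0.0292 over all probe sets. Of these calls, that of HSP90B1 held in 15 of 18 alternatives, HYOU1 in 11 of 18, SDF2L1 in 7 of 18, ERN1 in 12 of 19 and DNAJC3 in 17 of 19. All alternatives but the mean of probe sets read DNAJC3 by its brightest probe set alone.

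Among the 19 members that did not pass between the treatments, differences ran from -0.23 for DERL3 to 0.15 for DNAJB11. Torcetrapib arrays lay wholly below angiotensin II arrays for EDEM1, WFS1 and CALR of these, and wholly above for PDIA3 and DNAJB11.

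The 5′ to 3′ index moved with this comparison, since every torcetrapib array had a higher index than every angiotensin II array, so index and treatment cannot be told apart here. With the index in the model, 4 of the 13 calls were made, namely PPP1R15A, DDIT3, DNAJB9 and HERPUD1. Over all genes that model called 90 as higher and 190 as lower, where 912 and 1324 were called without the index. Under it the differences of ATF4 and EIF2AK3 were -0.30 and -0.37, close to those without it, and did not pass (limma adjusted p = 0.0553 and 0.207). Those of CHAC1 and PPP1R15B shrank from -0.60 and -0.31 to -0.39 and -0.25 and did not pass (limma adjusted p = 0.413 and 0.248). That of DNAJC3 went from -0.23 to -0.13 and did not pass either. The HSP90B1 difference was 0.02 (limma adjusted p = 0.986).

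Other genes of the pathway came from 6 lists that hold none of the members, and 99 of 108 listed genes were measured. With angiotensin II 11 rose and 3 fell against DMSO, where 6.13% of all genes were called. With torcetrapib 3 rose and 1 fell against DMSO, where 1.16% of all genes were called. Between the treatments torcetrapib was higher for 9 and lower for 15, where 11.3% of all genes were called. Targets of ATF4 outside the member list made up most of the angiotensin II calls, with 8 higher and 2 lower of 29. Of all genes, 3.37% were called as higher and 2.76% as lower in that comparison. ATF3, a transcription factor induced by many stimuli besides ER stress, read 7.99, 8.13 and 7.99 with torcetrapib, 10.88, 10.89 and 10.91 with angiotensin II, and 7.06, 7.06 and 7.26 with DMSO. It rose by 3.77 ± 0.07 with angiotensin II and by 0.91 ± 0.07 with torcetrapib, with limma adjusted p of 4.85e-15 and 1.82e-06, and all 3 groups lay apart.

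Smaller rises with angiotensin II were those of SLC3A2, the shared chain of amino acid transporters, by 0.65, and of VEGFA, the vascular growth factor, by 0.53. VLDLR, a lipoprotein receptor, fell by 0.43 and PSPH, an enzyme of serine synthesis, fell by 0.27. TRIB3, a pseudokinase that CHOP and ATF4 induce, differed by -0.06 and did not pass (limma adjusted p = 0.77). Among the 9 genes linked to cell death in ER stress, 3 rose and 1 fell with angiotensin II, against 3.37% and 2.76% of all genes. MCL1, which protects cells from apoptosis, rose by 1.00, and PMAIP1 (NOXA), which opposes MCL1, rose by 0.48. TXNIP, the thioredoxin-interacting protein, read 8.72, 8.81 and 8.61 with torcetrapib, 7.38, 7.25 and 7.36 with angiotensin II, and 9.20, 9.13 and 9.34 with DMSO. It fell by 1.89 with angiotensin II and fell by 0.51 with torcetrapib, and the groups did not overlap.

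Against DMSO, lists that carry the other parts of the response gave few or no calls. For angiotensin II the count by limma was 0 of 15 for eIF2 kinases and eIF2 machinery and 0 of 19 for ERAD and translocation. It was 0 of 19 for other ER folding proteins and 0 of 8 for ER membrane factors and proteases. Of all genes, 6.13% were called there, so lists of this size would hold few calls at that share. At an unadjusted limma p under 0.05, these lists held 4, 5, 2 and 1 genes in that order, and 16.5% of all genes passed. The other eIF2 kinases EIF2AK1, EIF2AK2 and EIF2AK4 differed by -0.09, -0.15 and -0.16 and did not pass, unlike EIF2AK3. With torcetrapib, SSR3, a subunit of the translocon-associated complex, rose by 0.20 and MCL1 by 0.14. Between the treatments, torcetrapib was higher for 2 of 15 genes of the eIF2 list. In ERAD and translocation it was higher for 3 and lower for 1 of 19. Among other ER folding proteins it was higher for 2 and lower for 3 of 19, and no ER membrane factor or protease was called. Of all genes, 11.3% were called in that comparison. The largest differences of those lists were 0.63 for IMPACT, a regulator of the eIF2 kinase GCN2, and -0.58 for ERO1B, an oxidase of ER disulphide formation, both called.

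**Figure D4:**
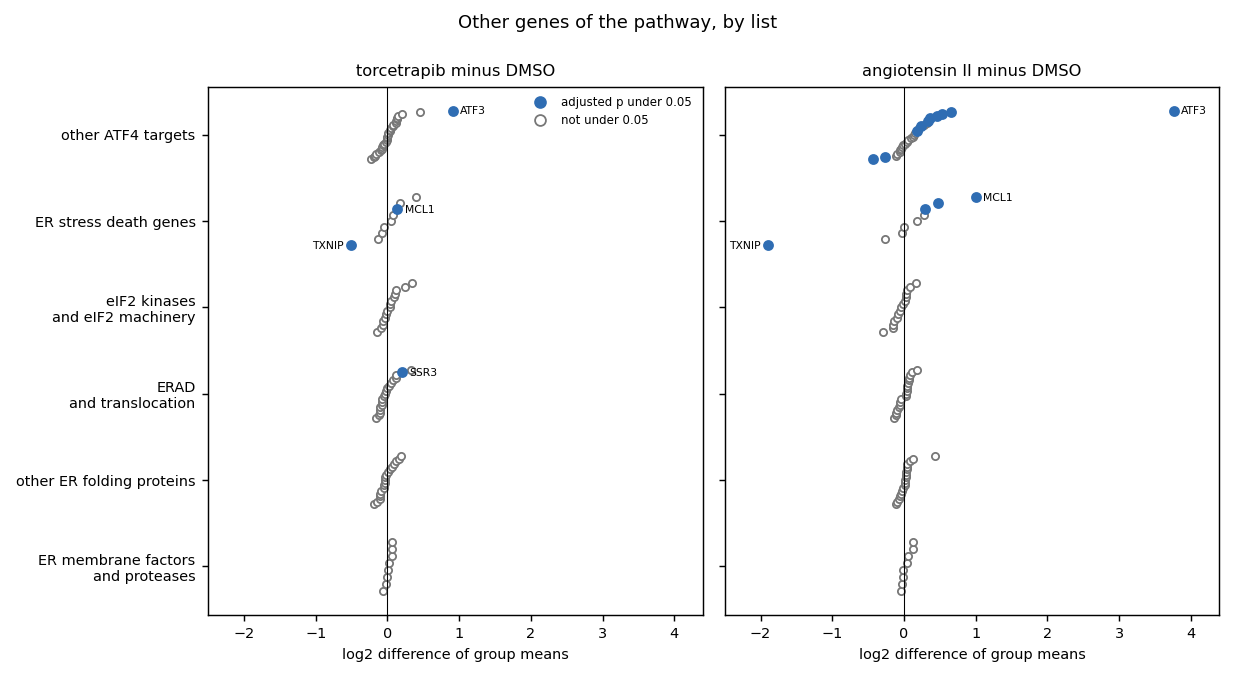
Log2 differences of the 99 other pathway genes from DMSO, one point a gene and one row a list, for torcetrapib (left) and angiotensin II (right), filled where the limma adjusted p was under 0.05, with names for every torcetrapib call and for angiotensin II calls beyond 0.9 in size. ATF3 and MCL1 lie to the right and TXNIP to the left in both panels, farther out with angiotensin II, and the 4 lower rows hold no angiotensin II call.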

How the data were processed

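Expression was measured with 9 Affymetrix arrays of 54675 probe sets in H295R cells, 3 arrays per group. The authors deposited log2 values that were, per the submitters' processing notes, made with RMA (robust multi-array averaging). Which software and probe definitions they used is not given in the sources used here. Sample titles carry serial numbers that are consecutive within a group, what they count is not stated, and no label names a batch. Where the design text names the hormone as a CETP inhibitor, the sample labels were followed instead.

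The values were used as deposited. Left out were 62 controls, 1801 probe sets annotated with more than 1 symbol and 11721 with no symbol, and each of 19752 genes took its probe set with the highest mean. The 3 groups entered a single linear model per gene in limma 3.58.1 (R 4.3.3), with an intensity trend and 6 residual degrees of freedom. Two-sided p-values were adjusted across all genes within each comparison (Benjamini-Hochberg) and called under 0.05, and 95% intervals are unadjusted. A level written ± carries an SD and a difference written ± an SE. The number of arrays limits the precision. The fit was tested on simulated data.

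The members, the branches and the 6 other lists were chosen with earlier results of these data known. Values on every array are given for each member called in any comparison and for HSPA5, XBP1, ATF4, EIF2AK3, ERN1 and ATF6, and the other members by range and count. Among other pathway genes, up to 5 called genes with the largest change per comparison and direction could be named, and TRIB3, EIF2AK1, EIF2AK2 and EIF2AK4 were named after their values were seen. Alternatives changed the moderation (no trend, robust), the genes (dim ones left out), the scaling (centring, quantile normalisation), the probe sets (their mean, or none ending in _x_at or _s_at) and the arrays (weights, a fit to the groups compared, each array left out), or added the 5′ to 3′ index as a covariate. Probe sets carry their platform annotation, brought up to date by gene identifier.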

Additional observations from a re-analysis of the deposited data

How the results depend on the processing

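Every count came with 19 alternatives. The member count of angiotensin II against DMSO, 10, stayed within 1.5 times of that value in each, and was 8 to 9 with 1 array left out. The member count of torcetrapib against DMSO, 1, became 0 without the trend, with centred arrays, with the mean of probe sets, without _x_at and _s_at probe sets, with only the groups compared or with the 5′ to 3′ index as a covariate, 2 with quantile normalisation and 8 with array weights, and 0 to 5 with 1 array left out, 5 without DMSO replicate 2. The member count between the treatments, 13, became 8 without _x_at and _s_at probe sets, where 28 members could be tested, and 4 with the index, and 10 to 14 with 1 array left out. Of other pathway genes, the 14 called for angiotensin II became 23 with quantile normalisation, 6 without _x_at and _s_at probe sets and 30 with array weights, and 12 to 17 with 1 array left out. The 4 called for torcetrapib became 2 without the trend, with centring, with only the groups compared or with the index, 9 with quantile normalisation, 1 with the mean of probe sets, 0 without _x_at and _s_at probe sets and 14 with array weights, and 2 to 11 with 1 array left out, 11 without DMSO replicate 2 and 8 without angiotensin II replicate 2. The 24 called between the treatments became 15 without the trend, 12 without _x_at and _s_at probe sets, 44 with array weights and 7 with the index, and 14 to 25 with 1 array left out, 14 without torcetrapib replicate 3 and 15 without angiotensin II replicate 2. Signs turned for HERPUD1 without _x_at and _s_at probe sets (-0.0941 for angiotensin II and -0.1303 for torcetrapib against DMSO), where another probe set stands for the gene, and for DNAJC3 between the treatments with the mean of probe sets (0.078). The cause of the other shifts was not tested. No paired analysis was possible because the labels give the groups no shared replicate numbers.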

Other observations

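Several members have further probe sets with other values, given here with p-values from limma adjusted over all probe sets with 1 symbol. For SEL1L, a further probe set was higher with torcetrapib than with DMSO by 0.97 and higher than with angiotensin II by 1.18, and its adjusted p against DMSO was 0.0142. A second further probe set of SEL1L was higher with torcetrapib than with angiotensin II by 0.82 (adjusted p = 0.0109). For CANX, 2 further probe sets were higher with torcetrapib than with angiotensin II, by 0.80 and 0.42, with adjusted p of 0.0121 and 0.00702. In the same comparison 1 further probe set each of DNAJC3, DERL1 and PDIA6 was higher with torcetrapib, by 0.38, 0.35 and 0.25, with adjusted p of 0.0292, 0.0155 and 0.0374. A further probe set of HSPA5 went the other way, with -0.25 (adjusted p = 0.0467). The 5′ to 3′ index of RNA quality was also higher on the torcetrapib arrays, and its part in these differences was not tested. Between angiotensin II and DMSO, a further probe set of PPP1R15A differed by 1.92 and 2 further probe sets of DNAJB9 differed by 0.73 and 0.30, with adjusted p of 2.4e-08, 0.000144 and 0.0516.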
